A study of Mus musculus with 6 samples.

Results

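The p53 target genes described here are 10 genes that the transcription factor p53 is known to switch on directly: Cdkn1a, Mdm2, Ccng1, Trp53inp1, Btg2, Bbc3, Pmaip1, Sesn1, Phlda3 and Plk2. They were chosen by name, and each symbol was found once among the 25001 loci of the deposited expression tables, of which 22601 carried a gene symbol. RNA was sequenced from 427.1.86 mouse thymoma cells, called 427 cells below, in 6 conditions with 1 library each. The 427 DMSO and 427 PMA libraries came from 427 cells with a wild type genotype that stably carried the empty pSUPER vector. The SP2bKD DMSO and SP2bKD PMA libraries came from 427 cells with knockdown of SPPL2b, an intramembrane protease that releases the intracellular domain of the membrane serine protease epithin/PRSS14 (gene St14). These 4 cultures were kept without serum for 2 h and then given the solvent DMSO or 1 µM of PMA, a phorbol ester that activates protein kinase C and causes shedding of epithin/PRSS14, for 2 h. The SP2bKD GFP and SP2bKD GFP+EICD libraries came from SPPL2b knockdown cells transfected with a GFP vector alone or together with Flag-N55, the epithin/PRSS14 intracellular domain (EICD), and both held cells sorted for GFP. All cells were at passage 4-10 and were grown in DMEM with serum. The study asked which genes respond to EICD, raised in 427 cells through PMA or supplied from a plasmid.

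p53 is held at a low level in unstressed cells, largely because MDM2, itself the product of a p53 target gene, marks it for degradation. Stress to DNA, nucleoli or nutrient supply frees p53, which then binds paired copies of a short DNA motif near its targets and raises their transcription. The targets act in cell cycle arrest, apoptosis, metabolism and the feedback on p53 itself, and many of them also respond to growth factor or stress signals without p53. In the thymus p53 is best known for the death of irradiated thymocytes, but the cells sequenced here carried epithelial markers.

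The knockdown lines limit the comparisons in several ways. The labels describe SPPL2b siRNA in the 4 SP2bKD libraries, whereas the study's methods describe single-cell clones with a stable hairpin vector, and the labels do not say which clone gave the DMSO and PMA libraries. Sppl2b itself stood at 9.90 and 6.86 FPKM (fragments per kilobase of transcript and per 1000000 mapped fragments) in 427 DMSO and 427 PMA, against 13.4 and 9.37 FPKM in SP2bKD DMSO and SP2bKD PMA, so its transcript level was not lower in the libraries labelled as knockdown. It stood at 11.4 and 13.2 FPKM in SP2bKD GFP and SP2bKD GFP+EICD. The study itself presents its clones as knockdown lines from real-time PCR of SPPL2b mRNA, and reports less PMA-induced EICD in them. St14 was at 69.7 FPKM in SP2bKD GFP and 614.5 FPKM in SP2bKD GFP+EICD, and the plasmid carries part of its coding sequence. The 5 thymic epithelial markers found (keratins 8, 14 and 18, Epcam and Cdh1; Krt5 was not analysed here) were all at 1 FPKM or more in every library and summed to between 2470 and 4312 FPKM. None of 6 lymphocyte markers reached 1 FPKM in any library, with sums of 0.0304 to 0.327 FPKM, and Cd4 and Cd3e were listed at 0 in all 6. The 6 fibroblast markers summed to 0.439 to 2.17 FPKM, and 1 of them, Pdgfrb, reached 1 FPKM in SP2bKD DMSO and SP2bKD PMA only.

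Each library was estimated to hold 24500000 to 29900000 fragments, and 10555 to 10873 loci reached 1 FPKM. With 1 library per condition no test between conditions was possible and no p is given. Intervals in brackets are 95% intervals for counting error, computed from estimated fragment numbers, and do not include the variation between cultures. The fragment numbers are upper estimates, so the intervals can be too narrow. Ratios are log2 ratios of FPKM with 0.01 FPKM added, and a gene was counted as apart when it differed more than 2-fold. Beside the counts of the 10 genes stands the share of all loci with a symbol, and 1 FPKM or more in at least 1 library compared, that passed the same limit.

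The sequence just upstream of the genes was examined for the p53 motif and for motifs of factors that act downstream of PMA. Windows ran from 250 bases before to 50 bases after each gene start in RefSeq (GRCm38.p6), and 8 of the 10 genes had one. The p53 half-site, a motif of 10 bases, was found on either strand in the windows of 4 of these 8 genes (Cdkn1a, Mdm2, Ccng1 and Sesn1), against 9.55% of 27025 genes and 8.36% of 32851 windows. The Sesn1 window (chr10:41887189-41887488) lay inside the Sesn1 locus read here (chr10:41810574-41908424), not before its start. A back-to-back pair of half-sites over 20 bases, with at most 2 mismatches, was in the windows of 2 genes, Cdkn1a and Ccng1, against 0.94% of genes and 0.798% of windows. The cyclic AMP response element TGACGTCA was in the windows of 2 genes, Btg2 and Plk2, against 2.03% of genes and 1.79% of windows. The AP-1 motif TGANTCA was in 8.97% of genes and 7.81% of windows, and the CArG box bound by serum response factor in 1.81% and 1.63%. Neither was found in the windows of these 8 genes. The pair overlaps the half-site by its construction, and the pair was searched after the sequences had been seen. Since the 10 genes were chosen as known direct p53 targets, a share of p53 motifs above that of all genes can follow from the choice. Of the other p53 targets treated below, 19 had a window, 8 of them with a half-site and 2 with a pair.

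The 4 sequences that hold a p53 pair or a cyclic AMP response element are shown 5′ to 3′ on the strand of the gene, from RefSeq GRCm38.p6, with the matched motifs in capitals and the bases inside exons left out. The Cdkn1a sequence lies at chr17:29090729-29090975 on the plus strand, with a half-site at -73 to -64 and the pair, with 1 mismatch, at -51 to -32 from the gene start. The Ccng1 sequence lies at chr11:40755312-40755536 on the minus strand, with the pair, with 1 mismatch, at -195 to -176. The Btg2 sequence lies at chr1:134079156-134079405 on the minus strand, with the cyclic AMP response element at -166 to -159. The Plk2 sequence lies at chr13:110394794-110395043 on the plus strand, with the element at -62 to -55.
Cdkn1a: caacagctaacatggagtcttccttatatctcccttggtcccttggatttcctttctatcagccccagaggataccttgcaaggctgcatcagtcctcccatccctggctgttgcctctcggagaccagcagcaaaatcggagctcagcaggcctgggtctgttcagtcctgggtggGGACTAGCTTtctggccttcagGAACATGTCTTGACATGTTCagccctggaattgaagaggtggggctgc
Ccng1: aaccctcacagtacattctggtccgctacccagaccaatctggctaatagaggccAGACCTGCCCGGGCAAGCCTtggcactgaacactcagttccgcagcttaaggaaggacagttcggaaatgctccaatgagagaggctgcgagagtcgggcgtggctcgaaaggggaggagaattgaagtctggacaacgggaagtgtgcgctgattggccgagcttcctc
Btg2: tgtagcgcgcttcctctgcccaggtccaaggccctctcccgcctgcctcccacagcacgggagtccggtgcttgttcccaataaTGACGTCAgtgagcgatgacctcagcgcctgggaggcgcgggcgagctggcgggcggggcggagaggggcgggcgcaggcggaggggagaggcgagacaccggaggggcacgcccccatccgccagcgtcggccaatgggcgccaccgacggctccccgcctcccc
Plk2: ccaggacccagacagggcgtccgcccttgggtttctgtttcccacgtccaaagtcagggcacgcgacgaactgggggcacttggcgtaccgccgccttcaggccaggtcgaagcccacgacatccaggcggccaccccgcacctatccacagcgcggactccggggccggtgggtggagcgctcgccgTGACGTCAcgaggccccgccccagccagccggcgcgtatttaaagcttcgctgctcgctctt

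All 10 genes were transcribed in every library, and none of their loci overlapped another locus of the tables. The authors' gene models hold newly assembled isoforms for 4 of them (Cdkn1a, Mdm2, Ccng1 and Bbc3) and the annotated transcripts for the other 6. The lowest value was 1.92 FPKM for Bbc3 in 427 PMA, estimated at 97.7 fragments. Since FPKM is per transcript length, levels can be set side by side between genes. Cdkn1a, Mdm2, Ccng1, Phlda3 and Plk2 formed the upper group with mean levels over the 6 libraries of 61.3 to 91.4 FPKM, followed by Pmaip1 at 45.4 FPKM. Btg2 (18.9), Trp53inp1 (15.8) and Sesn1 (9.59 FPKM) were lower, and Bbc3 (3.64 FPKM) was the lowest of the 10 in each library. The order within the upper group changed between conditions. Ccng1 was the first in 427 DMSO, Cdkn1a in 427 PMA, Mdm2 in SP2bKD DMSO, and Plk2 in SP2bKD PMA, SP2bKD GFP and SP2bKD GFP+EICD. The spread also differed. The highest library was 9.51 times the lowest for Trp53inp1, 5.82 times for Btg2, 4.94 times for Sesn1 and 4.86 times for Bbc3, but only 1.85 times for Ccng1, 1.96 times for Mdm2 and 2.06 times for Phlda3. On the deposited scale the SP2bKD GFP+EICD library was the highest of the 6 in 8 of the 10 genes. The SP2bKD PMA library was the lowest in 6 of the 10. The shares of all loci with these extremes were not taken, and the libraries differ in line, treatment, transfection, sorting and serum.

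**Figure D1:**
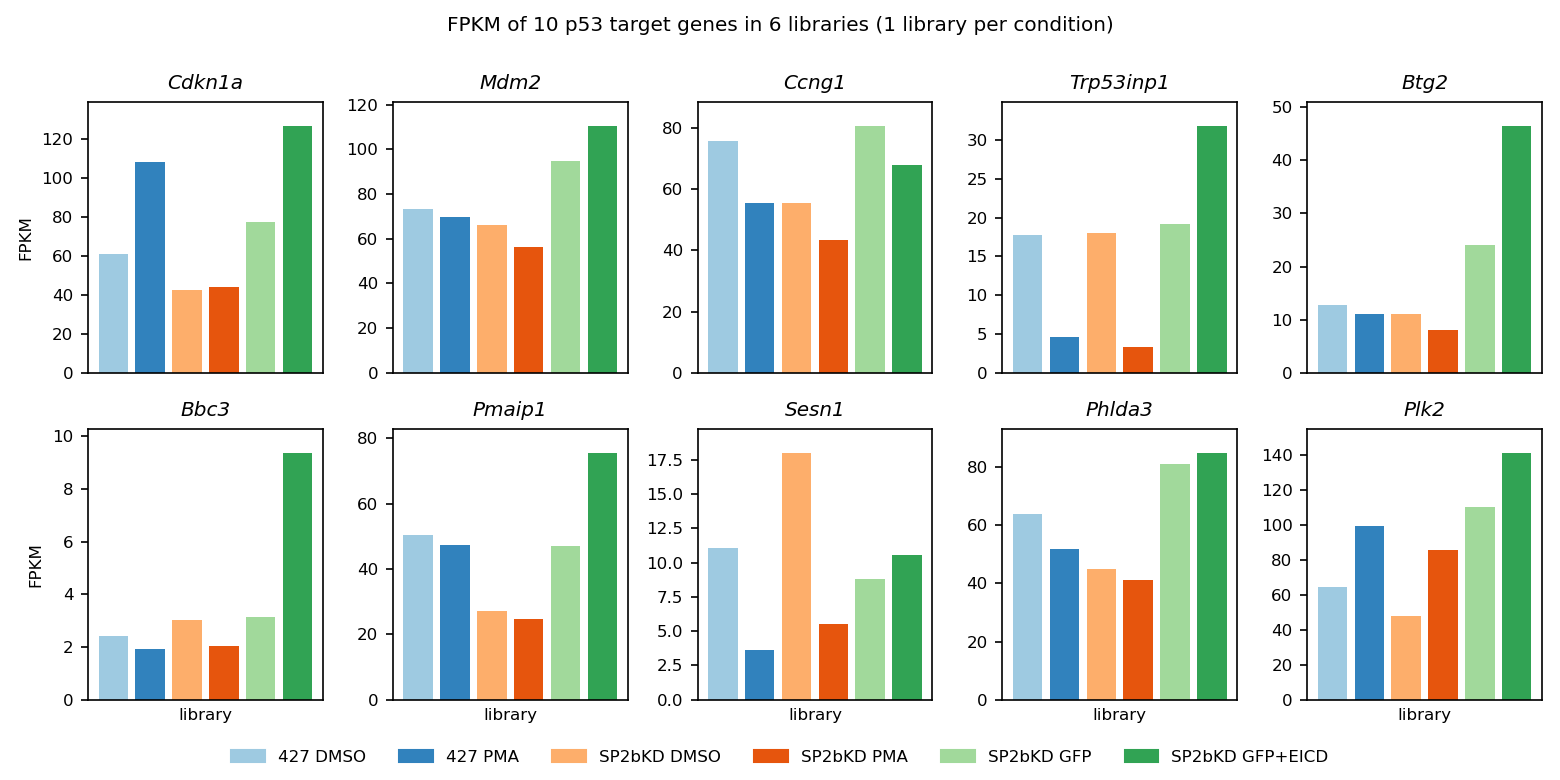
FPKM (vertical axis, from 0, a separate scale in each panel) of the 10 p53 target genes in the 6 libraries, 1 bar per library and 1 library per condition, so that no error bar can be drawn. The GFP+EICD bar is the highest in 8 panels, a count for which no share of all loci was taken. Trp53inp1 and Sesn1 are low in both PMA libraries, and Cdkn1a is high in 427 PMA but not in SP2bKD PMA.

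Among the genes of cell cycle arrest, Cdkn1a encodes p21, the inhibitor of cyclin-dependent kinases through which p53 halts the cycle (ENSMUSG00000023067, chr17:29090979-29100722, GRCm38). Its level was 60.9 FPKM in 427 DMSO, 108.3 in 427 PMA, 42.5 in SP2bKD DMSO, 43.9 in SP2bKD PMA, 77.2 in SP2bKD GFP and 126.4 FPKM in SP2bKD GFP+EICD. The 427 PMA and GFP+EICD libraries were thus the high ones, and both knockdown libraries of the PMA experiment the low ones. PMA gave a log2 ratio of 0.83 [0.77 to 0.89] in 427 cells and 0.05 [-0.04 to 0.13] in SP2bKD cells. The difference of these PMA effects, SP2bKD minus 427, was -0.78 [-0.89 to -0.68], the farthest from 0 among the 10 genes, and 1.9% of the loci at 10 FPKM or more had a lower difference. With PMA, Cdkn1a was 2.47-fold lower in SP2bKD than in 427 cells (log2 ratio -1.30 [-1.37 to -1.24], but -0.06 with each library scaled to the same FPKM sum), and without PMA 1.43-fold lower (-0.52 [-0.60 to -0.44], but 0.45 under that scaling). The medians of all loci under that scaling were 1.26 with PMA and 1.01 without. With the same sum outside the 10 largest loci, the ratios of Cdkn1a were -1.17 and -0.49. EICD against GFP gave 0.71 [0.66 to 0.77], a 1.64-fold higher level. The PMA effects of both lines share no library, whereas the comparison of SP2bKD with 427 cells uses the same PMA libraries and does not add to it.

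Btg2, an antiproliferative gene that recruits the deadenylation machinery to mRNAs (ENSMUSG00000020423, chr1:134075170-134079120), was at 12.8 FPKM in 427 DMSO, 10.98 in 427 PMA, 10.97 in SP2bKD DMSO and 7.99 in SP2bKD PMA. It reached 24.0 FPKM in SP2bKD GFP and 46.4 FPKM in SP2bKD GFP+EICD. Both sorted libraries lay above the other 4. The log2 ratio of EICD against GFP was 0.95 [0.87 to 1.04], a 1.93-fold difference just inside the 2-fold limit. That of GFP against SP2bKD DMSO was 1.13 [1.01 to 1.26]. PMA gave -0.22 [-0.35 to -0.08] in 427 cells and -0.46 [-0.61 to -0.31] in SP2bKD cells, so the level with PMA was slightly lower in both lines. Its upstream window holds the cyclic AMP response element printed above.

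Plk2, a polo-like kinase of centriole duplication that is also a serum response gene (ENSMUSG00000021701, chr13:110395044-110400844), was at 64.7 FPKM in 427 DMSO, 99.2 in 427 PMA, 47.9 in SP2bKD DMSO, 85.5 in SP2bKD PMA, 110.1 in SP2bKD GFP and 141.0 FPKM in SP2bKD GFP+EICD. Its level was higher with PMA in both lines. The log2 ratio of PMA was 0.62 [0.56 to 0.67] in 427 cells and 0.84 [0.78 to 0.90] in SP2bKD cells, 1.53-fold and 1.79-fold. Of the loci at 10 FPKM or more, 6.85% and 4.32% had a higher ratio. With each library scaled to the same FPKM sum, the ratio in 427 cells came to 0.37. GFP against SP2bKD DMSO gave 1.20 [1.14 to 1.26], the highest of the 10 in that comparison, and EICD against GFP 0.36 [0.31 to 0.40]. Plk2 and Btg2 share the response element in their windows, but their PMA ratios had opposite signs.

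Ccng1 encodes cyclin G1, which guides a phosphatase to MDM2 and so belongs to both arrest and feedback (ENSMUSG00000020326, chr11:40748552-40755311). It was at 75.9 FPKM in 427 DMSO, 55.4 in 427 PMA, 55.4 in SP2bKD DMSO, 43.6 in SP2bKD PMA, 80.6 in SP2bKD GFP and 67.8 FPKM in SP2bKD GFP+EICD. It was the single gene of the 10 with a lower level in GFP+EICD than in GFP, with a log2 ratio of -0.25 [-0.30 to -0.20]. PMA gave -0.46 [-0.51 to -0.40] in 427 cells and -0.35 [-0.41 to -0.29] in SP2bKD cells. Cdkn1a and Ccng1, the genes with a p53 pair upstream, therefore differed in sign in 427 cells with PMA and with EICD.

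Mdm2, the ubiquitin ligase that limits p53 (ENSMUSG00000020184, chr10:117688888-117710810), was among the steadiest of the 10. It was at 73.5 FPKM in 427 DMSO, 69.8 in 427 PMA, 66.1 in SP2bKD DMSO, 56.3 in SP2bKD PMA, 94.8 in SP2bKD GFP and 110.4 FPKM in SP2bKD GFP+EICD. The log2 ratios were -0.07 [-0.13 to -0.02] and -0.23 [-0.29 to -0.18] for PMA in 427 and SP2bKD cells, and 0.22 [0.18 to 0.26] for EICD. In 427 cells with PMA the direction of Mdm2 turned to 0.04 when the median ratio of all loci was set to 0.

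Phlda3, a small pleckstrin homology protein that keeps AKT off the membrane (ENSMUSG00000041801, chr1:135766119-135769136), was at 63.8 FPKM in 427 DMSO, 52.0 in 427 PMA, 45.0 in SP2bKD DMSO, 41.2 in SP2bKD PMA, 81.0 in SP2bKD GFP and 84.8 FPKM in SP2bKD GFP+EICD. Its ratio of EICD against GFP, 0.07 [-0.01 to 0.14], did not leave counting error and turned to -0.12 with the same FPKM sum, whereas GFP against SP2bKD DMSO gave 0.85 [0.76 to 0.94]. Mdm2, Ccng1 and Phlda3 were thus higher in both sorted libraries than in SP2bKD DMSO but within 1.2-fold of each other between them.

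Of the genes of apoptosis, Bbc3 encodes PUMA, a BH3-only protein that neutralises the BCL2 survival proteins (ENSMUSG00000002083, chr7:16309616-16318254). It was at 2.401 FPKM in 427 DMSO, 1.92 in 427 PMA, 3.01 in SP2bKD DMSO, 2.02 in SP2bKD PMA, 3.12 in SP2bKD GFP and 9.35 FPKM in SP2bKD GFP+EICD. A single library, GFP+EICD, stood apart, and the other 5 lay between 1.92 and 3.12 FPKM. EICD against GFP gave a log2 ratio of 1.59 [1.31 to 1.87], a 3.001-fold difference that ranked 110 from the top of 10682 loci and was the only one of the 10 past 2-fold. The GFP and SP2bKD DMSO libraries differed by 0.05 [-0.30 to 0.40] and the PMA ratios were -0.32 [-0.72 to 0.08] and -0.57 [-0.95 to -0.20]. At this level the counting interval is wider than the PMA ratio in 427 cells is large, and it includes 0.

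Pmaip1 encodes NOXA, another BH3-only protein, which opposes MCL1 (ENSMUSG00000024521). It was at 50.3 FPKM in 427 DMSO, 47.2 in 427 PMA, 27.2 in SP2bKD DMSO, 24.7 in SP2bKD PMA, 47.2 in SP2bKD GFP and 75.5 FPKM in SP2bKD GFP+EICD. The SP2bKD DMSO and PMA libraries were lower than both 427 libraries, with log2 ratios of -0.89 [-0.97 to -0.81] and -0.94 [-1.02 to -0.86]. With each library scaled to the same FPKM sum these ratios turned to 0.08 and 0.31, beside medians of all loci at 1.01 and 1.26. With the same sum outside the 10 largest loci they were -0.86 and -0.81. The PMA ratios were small, -0.09 [-0.16 to -0.02] in 427 cells and -0.14 [-0.23 to -0.05] in SP2bKD cells, and both turned to values above 0 (0.03 and 0.01) when the median of all loci was set to 0. EICD against GFP gave 0.68 [0.61 to 0.74].

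Trp53inp1, a nuclear and autophagosomal protein that favours phosphorylation of p53 and apoptosis (ENSMUSG00000028211, chr4:11156431-11174379), had the largest range of the 10. It was at 17.8 FPKM in 427 DMSO and 4.63 in 427 PMA, at 18.01 in SP2bKD DMSO and 3.35 in SP2bKD PMA, and at 19.2 in SP2bKD GFP and 31.8 FPKM in SP2bKD GFP+EICD. All 3 libraries of cells with neither PMA nor EICD lay between 17.8 and 19.2 FPKM. The level with PMA was 3.83-fold lower in 427 cells (log2 ratio -1.94 [-2.06 to -1.82], rank 61 from the lowest of 10643 loci) and 5.37-fold lower in SP2bKD cells (-2.43 [-2.57 to -2.29], rank 39 of 10624). EICD against GFP gave 0.73 [0.66 to 0.80], in the other direction.

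Sesn1, the metabolic member, encodes sestrin 1, a stress protein that restrains mTORC1 (ENSMUSG00000038332, chr10:41810574-41908424). It was at 11.04 FPKM in 427 DMSO, 3.64 in 427 PMA, 17.97 in SP2bKD DMSO, 5.51 in SP2bKD PMA, 8.80 in SP2bKD GFP and 10.6 FPKM in SP2bKD GFP+EICD. The 2 PMA libraries were the lowest of the 6. PMA gave 3.03-fold lower levels in 427 cells (log2 ratio -1.60 [-1.77 to -1.43], rank 124 from the lowest of 10643) and 3.26-fold lower levels in SP2bKD cells (-1.70 [-1.84 to -1.57], rank 145 of 10624). Its level was higher in SP2bKD than in 427 cells, by 0.70 [0.59 to 0.81] with DMSO and 0.60 [0.41 to 0.78] with PMA, where Bbc3 gave 0.32 [-0.04 to 0.69] and 0.07 [-0.34 to 0.48] and most of the other genes were below 0. With EICD it stood at 0.27 [0.13 to 0.40]. It was the only one of the 10 that was lower in GFP than in SP2bKD DMSO, at -1.03 [-1.15 to -0.91], a ratio that came to -0.95 with the median of all loci set to 0.

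Over the 10 genes, PMA was followed by no common direction of large size. In 427 cells none was more than 2-fold higher, beside 3.91% of 10643 loci, and 2 (Trp53inp1 and Sesn1) were more than 2-fold lower, beside 4.67%. In SP2bKD cells none was higher, beside 3.51% of 10624 loci, and the same 2 genes were lower, beside 5.69%. In each line 8 of the 10 ratios were below 0, the exceptions being Cdkn1a and Plk2, and the median ratios were -0.26 and -0.29. The shares of all loci below 0 were not taken. Mdm2 at -0.07 in 427 cells ranked 5807 from the lowest of 10643 loci. Phlda3 at -0.13 in SP2bKD cells ranked 5541 from the lowest of 10624. The medians of all loci were themselves below 0, at -0.12 and -0.15, and with these set to 0 the ratios of Mdm2 and Pmaip1 in 427 cells and of Pmaip1 and Phlda3 in SP2bKD cells turned above 0. The shares of loci higher and lower then came to 4.57 and 3.59% in 427 cells and 4.68 and 3.82% in SP2bKD cells, while with the same FPKM sum those in 427 cells came to 2.67 and 8.15%, and with the same sum outside the 10 largest loci to 3.05 and 7.30%. The difference of the PMA effects passed 2-fold for none of the 10 in either direction, beside 1.18% of 10845 loci above and 2.09% below, and its median over the 10 genes was -0.13. With the same FPKM sum the shares were 1.81 and 1.15%.

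**Figure D2:**
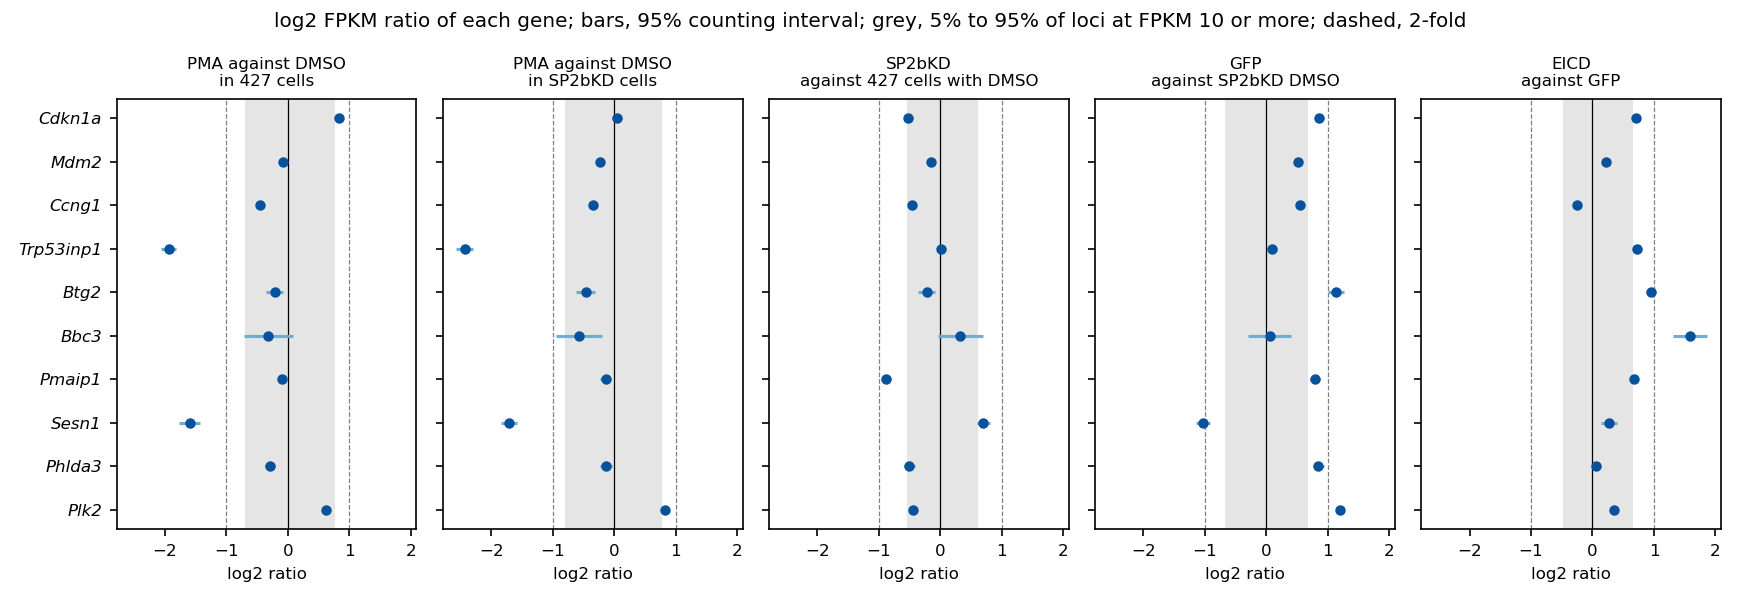
log2 ratio of FPKM (horizontal axis) of each of the 10 genes in 5 comparisons, 1 panel each, with bars for the 95% counting interval, a grey band for the middle 90% of loci at 10 FPKM or more, and dashed lines at 2-fold. Trp53inp1 and Sesn1 lie left of the dashed line in both PMA panels, Bbc3 lies right of it with EICD, and Cdkn1a is at 0.83 with PMA in 427 cells and at 0.05 in SP2bKD cells.

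Between the lines, most of the genes were lower in SP2bKD than in 427 cells on the deposited scale, but not with each library scaled to the same FPKM sum. With DMSO none passed 2-fold, beside 3.11% of 10706 loci above and 2.76% below, and 7 of 10 ratios were below 0. The share of all loci below 0 was not taken. Besides Cdkn1a and Pmaip1, Phlda3 gave -0.50 [-0.59 to -0.41], Ccng1 -0.45 [-0.51 to -0.40] and Plk2 -0.44 [-0.50 to -0.37], whereas Trp53inp1 stood at 0.02 [-0.06 to 0.10]. With PMA, Cdkn1a was the only gene more than 2-fold lower, beside 2.75% of 10518 loci, and none was higher, beside 2.19%. The median over the 10 genes was -0.33 with DMSO and -0.34 with PMA, beside 0.05 and 0.02 over all loci. With the same FPKM sum, the medians of the 10 became 0.64 and 0.91 and those of all loci 1.01 and 1.26, so the median of the 10 genes again lay below that of all loci. The shares of loci higher and lower were then 50.9 and 0.841% with DMSO and 79.8 and 0.818% with PMA. With the same sum outside the 10 largest loci they were 2.94 and 2.31% with PMA. The libraries also differ by line in that sum, which, in units of 1000000 FPKM, is 12.5 for 427 DMSO, 14.8 for 427 PMA and 6.24 to 7.08 for the others, with 85.6 to 94.2% of it in 10 loci. With 1 library for each line and treatment, the knockdown cannot be told apart from differences between clones or cultures.

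In the sorted cells the levels of most of the genes were higher with EICD. Of the 10 ratios of EICD against GFP, 9 were above 0, and the median was 0.52 beside 0.07 over all loci. The share of all loci above 0 was not taken. Phlda3, among these 9 genes, ranked only 5367 from the highest of 10682 loci. 1 gene, Bbc3, was more than 2-fold higher, beside 3.58% of 10682 loci, and none was more than 2-fold lower, beside 0.506%. At a limit of 1.5-fold, chosen after the values were seen, 5 of the 10 were higher (Bbc3, Btg2, Trp53inp1, Cdkn1a and Pmaip1), beside 10.5% of loci, and none was lower, beside 2.60%. With each library scaled to the same FPKM sum, 2 of the 10 passed 1.5-fold, beside 6.45% of loci, and the shares past 2-fold were 2.62% higher and 0.786% lower. With the same sum outside the 10 largest loci, 6 of the 10 passed 1.5-fold, beside 21.5% of loci. The 3 apoptosis genes and Cdkn1a and Btg2 lay in the upper part of the distribution of all loci, and Mdm2, Sesn1 and Plk2 in its middle to upper part, while Phlda3 was near the centre.

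**Figure D3:**
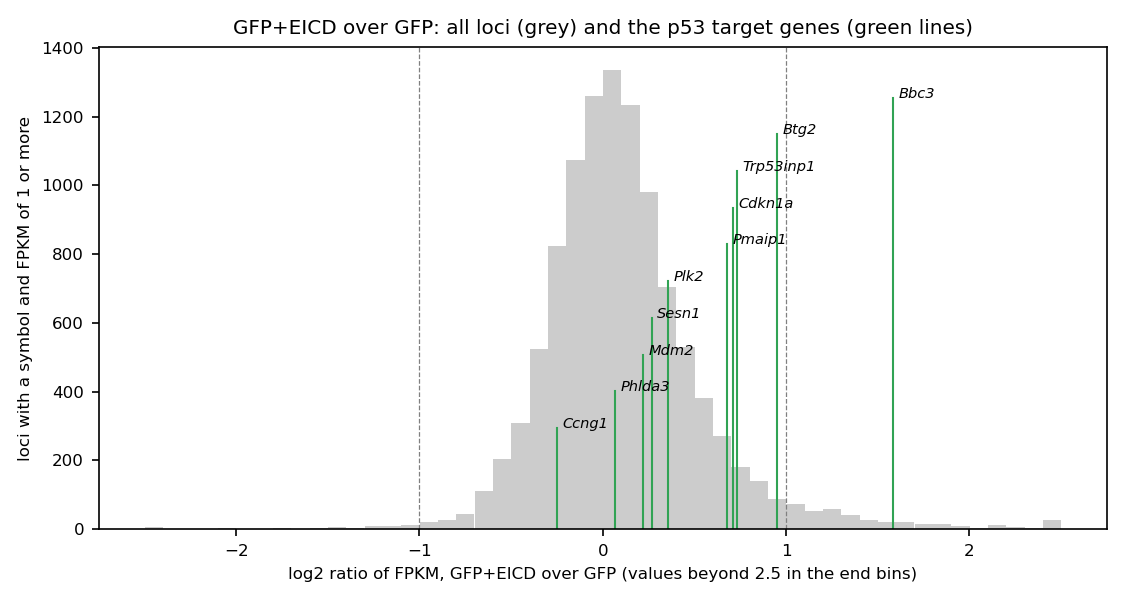
Number of loci with a symbol and 1 FPKM or more (vertical axis) by log2 ratio of FPKM in GFP+EICD over GFP (horizontal axis, bins of 0.1), with a green line at the ratio of each of the 10 genes; the line heights carry no value. Ccng1 at -0.25 is the only gene left of 0, 5 genes lie between 0.68 and 1.59, and dashed lines mark 2-fold.

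The GFP library, the control for EICD, itself differed from SP2bKD DMSO in these genes. Of the 10 ratios 9 were above 0, with a median of 0.67 beside -0.08 over all loci. The share of all loci above 0 was not taken. Plk2 and Btg2 were more than 2-fold higher, beside 3.56% of 10687 loci, and Sesn1 was more than 2-fold lower, beside 4.14%. Cdkn1a gave 0.86 [0.78 to 0.93], Phlda3 0.85 [0.76 to 0.94], Pmaip1 0.80 [0.71 to 0.88], Ccng1 0.54 [0.49 to 0.59] and Mdm2 0.52 [0.47 to 0.57]. At 1.5-fold, 5 of the 10 were higher, beside 8.01% of loci, and 1 lower, beside 12.0%. With the same FPKM sum outside the 10 largest loci, 0 of the 10 were higher at 2-fold and 3 at 1.5-fold, beside 2.37% of loci higher and 7.97% lower at 2-fold. Trp53inp1 at 0.09 [0.01 to 0.17] and Bbc3 at 0.05 were at almost equal levels in both libraries, and turned to -0.17 and -0.21 under that scaling. These libraries differ at once in transfection, sorting, serum and harvest, and possibly in the clone, which cannot be told apart. The comparison shares its GFP library with that of EICD, so only the values of each gene are set side by side here. Cdkn1a, Btg2, Pmaip1 and Plk2 were higher in GFP than in SP2bKD DMSO and higher again in GFP+EICD. Bbc3 and Trp53inp1 were higher in GFP+EICD alone, and Mdm2, Phlda3 and Ccng1 were higher in the sorted libraries with little or no further difference with EICD.

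**Figure D4:**
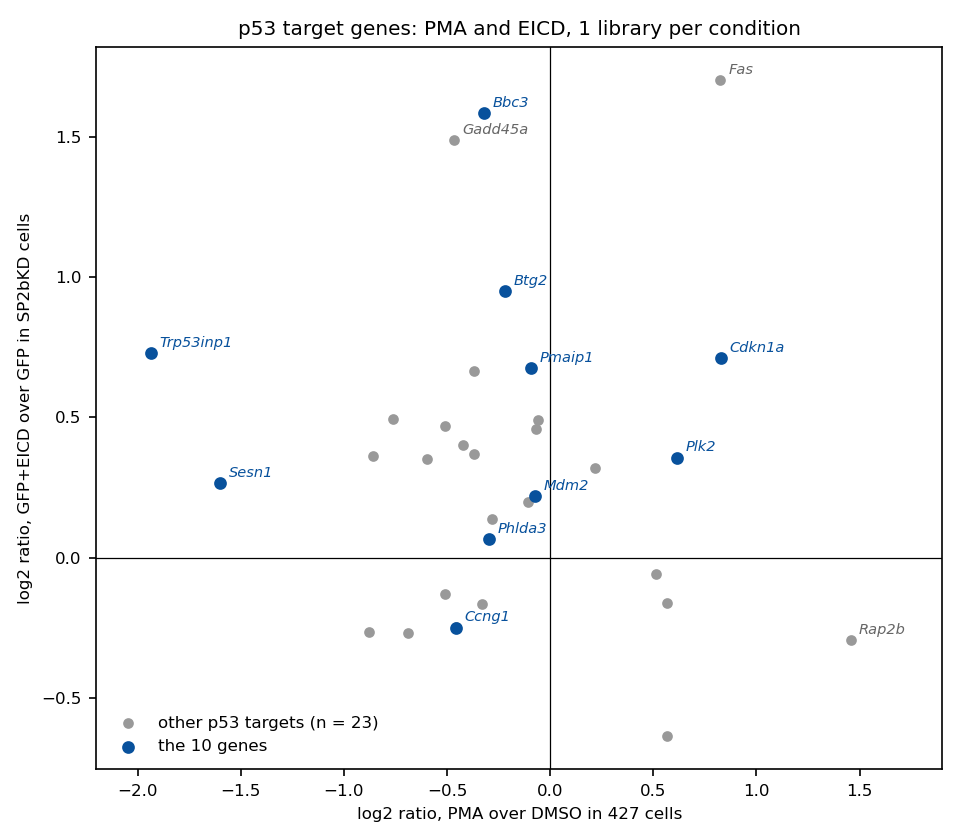
log2 ratio of EICD against GFP in SP2bKD cells (vertical axis) against that of PMA over DMSO in 427 cells (horizontal axis), which share no library, for the 10 genes (blue) and 23 other p53 targets (grey). Cdkn1a and Plk2 lie above 0 on both axes, Trp53inp1 and Sesn1 at the far left lie above 0 with EICD, and Fas and Gadd45a are beside Bbc3 at the top.

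Beyond the 10 genes, 25 other p53 targets were examined, of which 23 reached 1 FPKM in the libraries compared. In the sorted cells 14 of 23 were above 0 with EICD, with a median of 0.32 beside 0.07 over all loci. Of the 23, 2 were more than 2-fold higher, beside 3.58% of loci. Fas, the death receptor, went from 4.33 FPKM in GFP to 14.1 in GFP+EICD (log2 ratio 1.70) and Gadd45a, a stress sensor of DNA damage, from 10.96 to 30.8 FPKM (1.49). None was more than 2-fold lower, beside 0.506% of loci. The lowest was Sfn, which encodes the 14-3-3 sigma protein of cell cycle arrest, at -0.64. With PMA, 17 of 23 were below 0 in each line. The medians were -0.37 in 427 and -0.28 in SP2bKD cells, beside -0.12 and -0.15 over all loci. The shares of all loci above and below 0 were not taken. Rap2b, a small GTPase, was the only one more than 2-fold higher, beside 3.91% of loci in 427 and 3.51% in SP2bKD cells. It went from 1.92 to 5.30 FPKM in 427 cells (1.46) and from 1.45 to 4.41 FPKM in SP2bKD cells (1.60). Eda2r, the ectodysplasin A2 receptor, was lower with PMA in SP2bKD cells, from 5.78 to 2.44 FPKM (-1.24), beside 5.69% of loci more than 2-fold lower. It was also lower there than in 427 PMA (5.43 FPKM, -1.15), beside 2.75% of loci. Between the lines the medians of this list were -0.24 with DMSO and -0.19 with PMA, beside 0.05 and 0.02 over all loci. In GFP against SP2bKD DMSO the median was 0.30, beside -0.08 over all loci. Ephx1, an epoxide hydrolase, was higher there (24.0 to 61.2 FPKM, 1.35), beside 3.56% of loci more than 2-fold higher.

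With PMA and with EICD, the ratios of Trp53, the gene of p53, had the opposite sign to most of its targets and to the medians of all loci. It was at 96.1 FPKM in 427 DMSO, 134.8 in 427 PMA, 118.2 in SP2bKD DMSO, 160.9 in SP2bKD PMA, 118.8 in SP2bKD GFP and 95.1 FPKM in SP2bKD GFP+EICD. Its log2 ratios were 0.49 and 0.45 for PMA in 427 and SP2bKD cells, where 8 of the 10 targets were below 0, and -0.32 for EICD, where 9 of 10 were above 0. The medians of all loci were -0.12 and -0.15 with PMA and 0.07 with EICD, and the shares of all loci on each side of 0 were not taken. With the PMA medians set to 0, Mdm2 and Pmaip1 in 427 cells and Pmaip1 and Phlda3 in SP2bKD cells turned above 0. p53 is governed mainly through its protein, which was not measured. Of 17 regulators found among 18 listed (Chek1 was not analysed here), 16 reached 1 FPKM in 427 DMSO or 427 PMA and none of these 16 passed 2-fold with PMA in 427 cells, beside 3.91% of loci higher and 4.67% lower. Trp73, the one under 1 FPKM there, was lower with PMA. Over the regulators at 1 FPKM or more, the medians of the list lay between -0.10 and 0.13 in the 7 comparisons. Cdkn2a, whose ARF product holds MDM2 off p53, was at 112.4 to 155.0 FPKM in all libraries. Trp63, a relative of p53 in epithelial cells, was at 30.5 FPKM in SP2bKD DMSO and 62.7 FPKM in SP2bKD GFP (1.04), and at 78.7 FPKM in SP2bKD GFP+EICD. Trp73, the other relative, was at 0.675 FPKM in 427 DMSO, 0.0166 in 427 PMA, 1.42 in SP2bKD DMSO, 0.219 in SP2bKD PMA, 5.55 in SP2bKD GFP and 2.70 FPKM in SP2bKD GFP+EICD, and passed 2-fold in several comparisons at these low levels.

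Of the paralogues of the 10 genes, 13 of 15 reached 1 FPKM. With PMA in 427 cells 3 were more than 2-fold higher and 2 lower, beside 3.91 and 4.67% of loci, and in SP2bKD cells 3 were higher and 3 lower, beside 3.51 and 5.69%. Plk3, an early response kinase, was higher with PMA in 427 cells (7.60 to 36.6 FPKM, log2 ratio 2.26) and in SP2bKD cells (4.44 to 18.6 FPKM, 2.07), beside 0.62 and 0.84 for Plk2. It was also higher with EICD (10.3 to 24.0 FPKM, 1.21). Phlda1 went from 8.28 to 32.3 FPKM (1.96) and from 6.13 to 21.9 FPKM (1.84) with PMA, and Phlda2 from 3.87 to 10.6 FPKM (1.45) and from 1.40 to 4.83 FPKM (1.78). Phlda3, in contrast, gave -0.29 and -0.13. Ccng2, which encodes cyclin G2 and is a known target of FOXO factors, was lower with PMA, from 38.3 to 13.3 FPKM (-1.53) and from 60.9 to 17.5 FPKM (-1.80), and lower in SP2bKD GFP at 18.6 FPKM (-1.71), the same directions as Sesn1 in these 3 comparisons. Sesn2, a target of the integrated stress response as well as of p53, was higher with EICD (7.32 to 18.7 FPKM, 1.36), beside 0.27 for Sesn1. Trp53inp2, which acts in autophagy, was lower in SP2bKD GFP than in SP2bKD DMSO (24.7 to 8.38 FPKM, -1.56).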

How the data were processed

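The authors sequenced poly(A)-selected RNA as paired ends on an Illumina HiSeq 2500, and deposited 1 table of FPKM values per library for loci of the GRCm38 mouse genome. The submitters' processing notes name TopHat2 2.1.1, Cufflinks 2.1.1, Cuffdiff 2.1.1 and STAR 2.4.0b, with no role given for the last. No counts were used. FPKM is relative to mapped fragments and transcript length, so a gain in a few very abundant loci lowers all others.

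Here the 10 genes were read from the 6 tables and log2 ratios of FPKM were taken after adding 0.01 FPKM to both libraries. For EICD against GFP, 0.01 was added to the GFP+EICD library only, over loci at 0.01 FPKM or more in GFP. Depth was estimated from the steps between low FPKM values of genes with 1 transcript over 2500 bases, and fragments from FPKM, the longest GENCODE transcript and depth, so that they are upper estimates. Intervals cover counting error only, since 1 library per condition gives no variation between cultures. They can be too narrow even for that error, since the fragment numbers are upper estimates and PCR copies are not independent molecules. The depth estimate and intervals were tested on simulated data. The text names all 10 genes, Trp53, Sppl2b, St14, and from each other list at most the 4 genes farthest past 2-fold in each comparison. Values named outside this rule (Sfn, Cdkn2a, and Trp63 and Trp73 in further libraries) were chosen after they were seen. Members and lists were chosen with earlier results of these data known. Alternatives were other added amounts, minimum levels and scalings, and 1 scaling and the 1.5-fold limit were added after the data were seen. Python 3.11.15, NumPy 2.4.6, pandas 2.3.3, SciPy 1.17.1 and matplotlib 3.10.9 were used.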

Additional observations from a re-analysis of the deposited data

How the results depend on the processing

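No paired analysis was possible because the labels give no replicate numbers and each condition has 1 library, for which reason no library could be left out either. Of the counts of p53 target genes past 2-fold, 118 values under the alternatives stayed within 1.5 times of the reported ones and 10 did not; no ratio past 2-fold changed sign. With each library scaled to a sum of 1000000, SP2bKD against 427 cells with DMSO gave 2 genes higher (0 as reported), SP2bKD against 427 cells with PMA gave 3 higher (0) and 0 lower (1), and GFP against SP2bKD DMSO gave 0 lower (1). That scaling moves the median of all loci between the lines by about 1 on the log2 scale because the FPKM sums rest on 10 loci. At a minimum of 10 FPKM, EICD against GFP gave 0 genes higher (1), since Bbc3 lies under it. With the same sum outside the 10 largest loci, a scaling added after the data were seen, EICD gave 2 higher, with Btg2 at 1.19, beside 6.14% of loci (3.58% as reported), and GFP against SP2bKD DMSO 0 higher (2). The 1 gene lower in GFP, Sesn1, fell to 0 genes also with 1 FPKM added, with equal upper quartiles and with the median set to 0, where its ratio was -0.95. Trp53inp1 and Sesn1 with PMA stayed past 2-fold lower in both lines under every alternative. The PMA ratio of Cdkn1a lay between 0.58 and 0.95 for 427 cells, and for SP2bKD cells between -0.03 and 0.19. With 1 library per condition, the counting intervals are the only error that could be given.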
